A study of Homo sapiens with 18 samples.

Results

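The insulin-like growth factor (IGF) axis was followed here through 10 genes in cells of HAP1, an established human line that is nearly haploid, with and without the cohesin regulators WAPL and SCC4. The members were 6 IGF-binding proteins (IGFBP2, IGFBP3, IGFBP4, IGFBP5, IGFBP6 and IGFBP7), the ligand IGF2 and the receptors IGF1R, IGF2R and INSR. All 10 were found by symbol among the 20329 counted genes, and 9 of them had at least 10 reads in some sample. The 18 samples formed 6 groups of 3. Unedited HAP1 cells gave control A and control B. ΔWAPL cells carried a blasticidin cassette at WAPL and were sampled as 2 clones, 3.3 and 1.14. ΔSCC4 cells carried a puromycin cassette at SCC4 (gene symbol MAU2), and ΔWAPL/ΔSCC4 cells were made by knocking out SCC4 in the ΔWAPL background, which the labels give as clone 3.3. Every group descends from parental HAP1 cells with a mutant p53, and a clone differs from another in its history as well as in its named edit. Nothing in the labels says whether the 3 samples of a group came from separate cultures, so the errors below measure the spread between these samples only.

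IGF2 and the related ligand IGF1 signal through the receptor tyrosine kinase IGF1R, and INSR, the insulin receptor, also takes IGF2 in one of its splice forms. IGF2R carries no kinase and removes IGF2 from the cell surface for breakdown. Secreted IGF-binding proteins hold most of the ligand outside cells and are themselves cut by proteases, so their levels set how much ligand is free. WAPL releases cohesin from DNA, and SCC4 together with SCC2 loads it. The comparisons ask how the RNA of this axis differed when WAPL, SCC4 or both were lost.

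The members were chosen by name with earlier results of these counts known, including levels over the 6 groups. Their levels and fold changes are therefore given as a description, with standard errors and intervals but without p-values, and no count of members supports a statement about the axis. Levels are CPM, the read count of a gene relative to the library total, after TMM scaling, a library-size correction in edgeR and are given with their SD over n = 3. A gene is called where its Benjamini-Hochberg adjusted p, over all genes tested by edgeR's quasi-likelihood test, was below 0.05.

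The total count on genes per sample was between 10007646 and 20711127, with a median of 16177868. The edited genes followed the labels. MAU2 stood between 0.51 and 1.04 CPM in the 6 samples without SCC4 and at 52.1 CPM or more in the other samples. WAPL RNA was lower but not absent, between 38.0 and 50.2 CPM in the 9 samples without WAPL and between 68.0 and 131 CPM in the other samples. All 5 blood markers stayed under 1 CPM in every sample, although HAP1 derives from a leukaemia line, as did the 3 endothelial markers measured and 4 of 5 fibroblast markers. The 4 epithelial markers (EPCAM, CDH1, KRT8 and KRT18) summed to between 41.6 and 81.9 CPM in 5 groups and to between 107 and 131 CPM in ΔWAPL/ΔSCC4. KRT8 averaged 48.5 CPM there and at most 10.4 CPM elsewhere, while CDH1 was at 0.21 CPM or below in every sample. COL1A1, the fibroblast marker above 1 CPM, averaged 29.4 CPM in ΔWAPL/ΔSCC4 and 11.4 to 21.4 CPM in the other groups. The part of these shifts in the values below was not tested. Because these are bulk samples, fewer cells with a transcript and less of it per cell cannot be told apart.

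The promoters of IGFBP5 and IGFBP2 are shown because the results turn on this pair of neighbouring genes. IGFBP2 lies on the plus strand of chromosome 2 (GRCh37, chr2:217497551-217529159) and IGFBP5 on the minus strand (chr2:217536828-217560272). They point toward each other, with 7668 bases between their 3′ ends. The 250 bases before the start of each gene's canonical transcript read as follows, 5′ to 3′ on the strand of the gene, with the motif found in capitals (IGFBP5 from chr2:217560273-217560522 minus, IGFBP2 from chr2:217497893-217498142 plus). For IGFBP2 that start lies inside the annotated gene, whose outermost transcript begins upstream of this window.
IGFBP5: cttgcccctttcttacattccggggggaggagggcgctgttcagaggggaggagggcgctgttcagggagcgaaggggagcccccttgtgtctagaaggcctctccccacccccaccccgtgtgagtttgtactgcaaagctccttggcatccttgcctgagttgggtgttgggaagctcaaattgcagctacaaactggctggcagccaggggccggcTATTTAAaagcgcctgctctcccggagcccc
IGFBP2: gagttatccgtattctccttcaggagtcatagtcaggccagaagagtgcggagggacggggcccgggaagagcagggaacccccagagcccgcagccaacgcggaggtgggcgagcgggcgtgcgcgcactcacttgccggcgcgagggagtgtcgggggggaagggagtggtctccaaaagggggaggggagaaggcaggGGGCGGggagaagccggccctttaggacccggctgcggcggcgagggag
The capitals in IGFBP5 mark TATTTAA, 31 to 25 bases before the canonical start, and those in IGFBP2 mark GGGCGG, a GC box, 49 to 44 bases before it. Both strands were searched for these letters and for TATAAA, and the 3 motifs share no overlapping match here. TATAAA was in neither promoter. TATTTAA was searched only after the sequence had been read and was held by 3.0% of 19355 promoters of the same length before a canonical start, against 9.0% for TATAAA and 59.5% for GGGCGG. GC content was 61.2% in the IGFBP5 promoter and 69.2% in that of IGFBP2, with a median of 63.2% over all promoters.

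On the other chromosomes the members lie, on GRCh37, at chr17:38599702-38613977 (IGFBP4), chr12:53491220-53496129 (IGFBP6), chr4:57896939-57976551 (IGFBP7), chr7:45951844-45961473 (IGFBP3), chr15:99191768-99507759 (IGF1R), chr6:160390114-160534539 (IGF2R) and chr19:7112266-7294425 (INSR). Counts cover all exons of a gene, so the levels do not tell its transcripts apart.

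IGFBP5, a binding protein that is stored in the extracellular matrix, was lower in every knockout group than in its controls. In control A the 3 samples stood at 430.9, 420.9 and 439.5 CPM. In ΔWAPL clone 3.3 they stood at 30.6, 34.5 and 31.0 CPM, and in ΔWAPL/ΔSCC4 at 35.3, 43.1 and 38.8 CPM. ΔSCC4 was intermediate, since its samples stood at 69.9, 70.3 and 76.7 CPM. Control B stood at 199.9, 193.8 and 192.7 CPM and clone 1.14 at 82.2, 80.8 and 82.4 CPM. The order of the group means was control A (430.45 ± 9.31), control B (195 ± 3.85), clone 1.14 (81.8 ± 0.86), ΔSCC4 (72.3 ± 3.77), ΔWAPL/ΔSCC4 (39.1 ± 3.91) and clone 3.3 (32.0 ± 2.17). No neighbours in that order overlapped, and the closest were ΔWAPL/ΔSCC4 and clone 3.3, whose nearest samples were at 35.3 and 34.5 CPM. These levels rest on 466 to 7375 reads a sample.

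The fitted log2 fold change of IGFBP5 was -3.77 (SE 0.146, 95% interval -4.08 to -3.45) in clone 3.3 against control A, a level 13.6-fold lower. In clone 1.14 against control B it was -1.26 (SE 0.048, -1.38 to -1.15), 2.40-fold lower. In ΔSCC4 against control A it was -2.59 (SE 0.120, -2.85 to -2.32), which is 6.005-fold lower, and in ΔWAPL/ΔSCC4 against control A it was -3.46 (SE 0.127, -3.75 to -3.18), which is 11.04-fold lower. The 3 comparisons with control A share the same control samples. ΔWAPL/ΔSCC4 against clone 3.3 gave a difference of 0.29 (SE 0.125, 0.025 to 0.554). The controls themselves differed, at -1.15 (SE 0.101, -1.38 to -0.92) for control B against control A. With all 6 controls in place of 3, the log2 fold change was -3.30 for clone 3.3 and -1.94 for clone 1.14. Of the genes with at least 100 CPM in the controls, IGFBP5 had the largest fall of 2514 in clone 3.3, in ΔSCC4 and in ΔWAPL/ΔSCC4, and it ranked 3 of 2480 in clone 1.14. Among all genes tested, its fall ranked 37 of 12489, 78 of 12503, 55 of 12594 and 324 of 12636 in those 4 comparisons. These ranks describe a gene picked for its pattern.

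**Figure D1:**
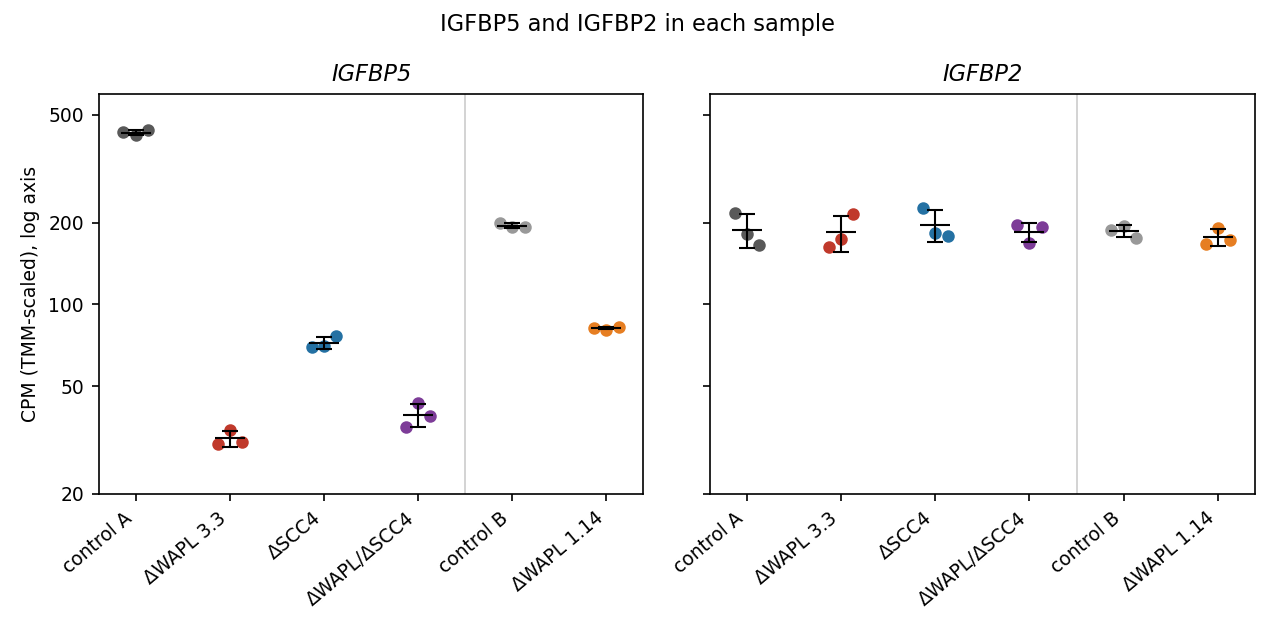
Level of IGFBP5 (left) and IGFBP2 (right) in each sample, in TMM-scaled CPM on a log axis, with a point for each of the 3 samples of a group and bars for the mean ± SD. The IGFBP5 samples separate into 6 levels between 30.6 and 439.5 CPM, while the IGFBP2 samples of all groups lie between 162 and 227 CPM.

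IGFBP2, a binding protein abundant in fetal and tumour tissue, had levels that overlapped between groups. Control A stood at 218, 182 and 165 CPM, clone 3.3 at 162, 174 and 216 CPM, and ΔSCC4 at 227, 183 and 179 CPM. ΔWAPL/ΔSCC4 stood at 196, 168 and 192 CPM, control B at 189, 194 and 176 CPM and clone 1.14 at 167, 191 and 173 CPM. Every pair of neighbours in the order of the means overlapped, and the means ran from 177 ± 12.6 in clone 1.14 to 196 ± 26.4 in ΔSCC4. Against their own controls, clone 3.3 had a log2 fold change of -0.05 (95% interval -0.40 to 0.30) and clone 1.14 one of -0.08 (-0.24 to 0.09). For ΔSCC4 it was 0.05 (-0.28 to 0.38), and for ΔWAPL/ΔSCC4 -0.03 (-0.33 to 0.27). These intervals bound a difference without showing that the levels were equal. The coefficient of variation within a group was 5.1% to 15.4% for IGFBP2 and 1.1% to 10.0% for IGFBP5, ranges that overlap.

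Around the pair, 8 of 31 annotated genes within 500 kb were in the count table, and the data of the other genes in this window are not analysed here. IGFBP2 is followed, moving away from IGFBP5, by RPL37A, which encodes a ribosomal protein, SMARCAL1, an annealing helicase of stalled replication forks, MARCHF4, a ubiquitin ligase of the Golgi, and XRCC5, which encodes the Ku80 subunit of DNA end joining. XRCC5 averaged 815 to 1003 CPM over the groups, RPL37A 771 to 1024 CPM and SMARCAL1 31.4 to 39.5 CPM. MARCHF4 had at most 1 read in a sample, and TNP1, a transition protein of sperm chromatin, and the RNA LINC01921, both on the far side of IGFBP5, had none, which allows up to 0.145 to 0.300 CPM (3 reads per library, counting error only). The only call among these neighbours in the comparisons of a knockout with its control was SMARCAL1 in clone 1.14. Its log2 fold change was -0.23 (SE 0.064, adjusted p = 0.0453, edgeR), against 39.5 ± 1.39 CPM in control B. In that comparison 20.1% of all tested genes were called. The fold change of SMARCAL1 in clone 3.3 was not called. DIRC3-AS1, an antisense RNA that the annotation places over the IGFBP5 start on the plus strand, is not analysed here. The libraries were strand-specific, and whether antisense reads entered the count of IGFBP5 was not tested.

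**Figure D2:**
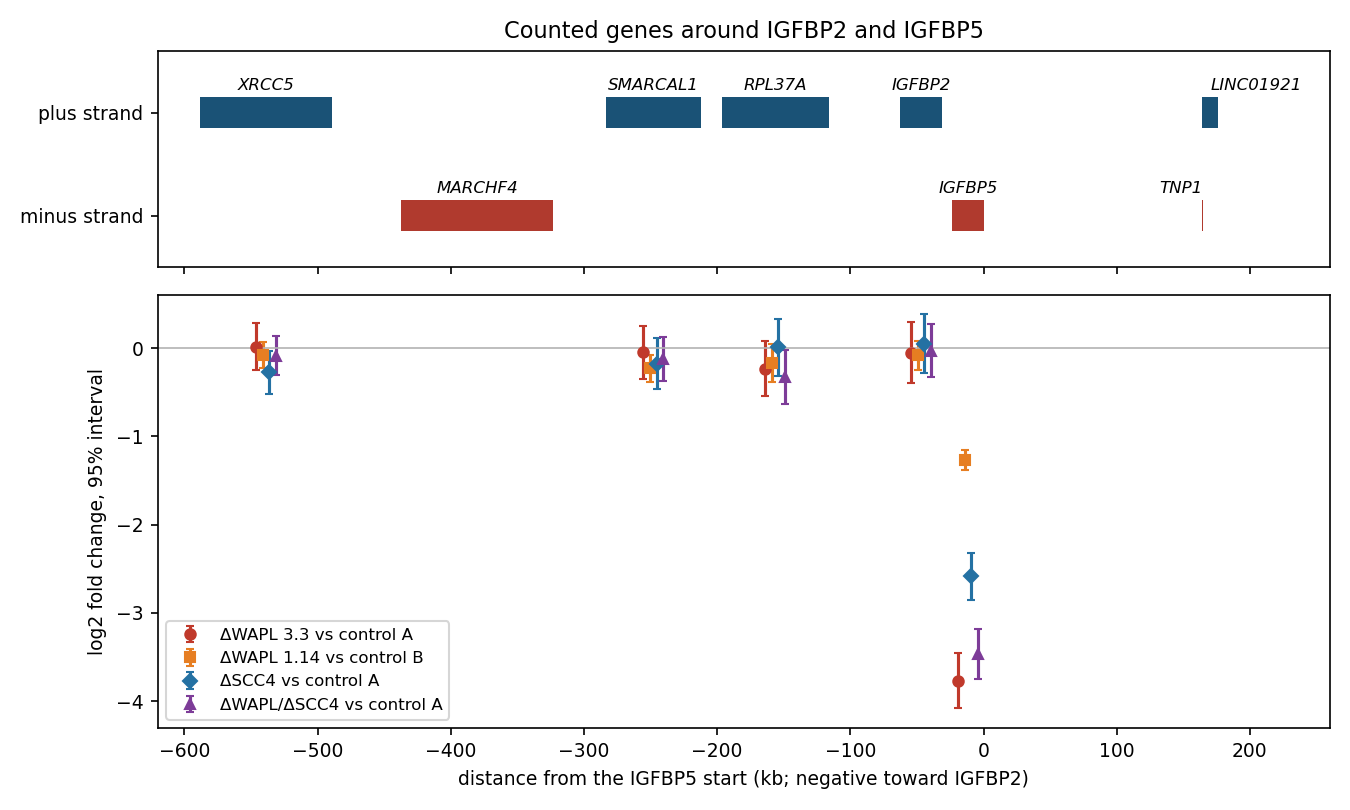
Map of the 8 counted genes around IGFBP5 (top, bars by strand) and their log2 fold changes with 95% intervals in 4 comparisons (bottom), against the distance in kb from the IGFBP5 start. Genes without a point had too few reads to be tested. IGFBP5 lies between -3.77 and -1.26, and XRCC5, SMARCAL1, RPL37A and IGFBP2 lie between -0.33 and 0.05.

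The mix of binding proteins differed with IGFBP5. Per kilobase of exon, IGFBP2 stood at 0.51 to 0.69 times IGFBP5 in control A and at 1.24 to 1.37 times in control B. For clone 1.14 the same ratio lay from 2.76 to 3.22 and for ΔSCC4 from 3.19 to 4.43. The highest ratios were those of ΔWAPL/ΔSCC4, from 5.31 to 7.56, and clone 3.3, from 6.87 to 9.53. IGFBP5 therefore made up 47.9% to 55.5% of the summed level per kilobase of the 6 binding proteins in control A and 32.4% to 35.0% in control B. For clone 1.14 its share lay from 17.2% to 18.9% and for ΔSCC4 from 12.3% to 15.8%. The lowest shares were those of ΔWAPL/ΔSCC4, from 8.1% to 11.2%, and clone 3.3, from 6.5% to 8.3%. The sum, of which IGFBP5 is a part, was 122.5 to 139 CPM per kilobase in control A and 85.2 to 92.5 in control B. It was 58.6 to 73.3 in clone 3.3, 75.2 to 87.6 in ΔSCC4, 59.4 to 67.1 in ΔWAPL/ΔSCC4 and 67.3 to 72.8 in clone 1.14. Control A overlapped with no other group, control B included.

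Of the other binding proteins, IGFBP4, which restrains IGF action until it is cut by a protease, stood per kilobase below IGFBP2 in every group, below IGFBP5 in both controls and above IGFBP5 in all 4 knockout groups. Per kilobase it averaged 21.2 CPM in control A and 20.05 CPM in clone 3.3, where IGFBP5 averaged 66.6 and 4.95 CPM. Unscaled by length, its group means ran from 38.0 ± 1.87 CPM in clone 1.14 to 56.5 ± 4.68 CPM in ΔSCC4. Control A stood at 54.3, 46.1 and 40.2 CPM and ΔSCC4 at 61.8, 54.9 and 52.9 CPM, so that their ranges overlapped at the top of control A. IGFBP6, which prefers IGF2 over IGF1, averaged 1.65 to 2.41 CPM, and all its groups overlapped with their neighbours in the order of the means. It had 16 to 48 reads a sample, and its log2 fold changes against controls ran from -0.29 to 0.04, with standard errors of 0.256 to 0.314.

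IGFBP7 binds IGFs weakly and is the most distant relative in the family. It had 2 reads in every control A sample and 7, 10 and 6 in clone 3.3. Reads were 3, 1 and 4 in ΔSCC4 and 2, 1 and 1 in ΔWAPL/ΔSCC4. Control B held 1, 4 and 1 reads and clone 1.14 held 12, 17 and 14. Both ΔWAPL clones were thus above their controls in every sample, at 0.49 ± 0.19 and 0.83 ± 0.19 CPM, whereas ΔWAPL/ΔSCC4 was not. Of the comparisons of a knockout with its control, that of clone 1.14 alone had enough reads of IGFBP7 to be tested, and it had them only because of the group where IGFBP7 is high. The log2 fold change there was 2.62 (SE 0.507). It lay from 2.22 to 3.59 when 1 library was left out, with the highest value without control B replicate 2. The call is lost without control B replicate 1, where the value was 2.38, and IGFBP7 was not tested at a minimum of 10 counts in every sample. The difference between the clones was also tested for IGFBP7, through the same high group, and gave -0.77 (SE 0.857) for clone 3.3 minus clone 1.14. IGFBP3, the main IGF carrier of serum, had 1 read in 1 control B sample and 0 in the other 17 samples.

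IGF2, the ligand among the members, was higher in both groups without SCC4. Control A stood at 2.28, 1.73 and 2.03 CPM and clone 3.3 at 2.69, 1.98 and 2.53 CPM, which overlap. ΔSCC4 stood at 7.41, 6.41 and 7.88 CPM, and ΔWAPL/ΔSCC4 at 8.14, 7.56 and 5.88 CPM, both above every other sample of the series. Control B stood at 4.03, 4.10 and 4.56 CPM and clone 1.14 at 4.56, 3.92 and 3.92 CPM. The log2 fold change was 1.84 (SE 0.194, 95% interval 1.41 to 2.27) in ΔSCC4 and 1.83 (SE 0.193, 1.40 to 2.26) in ΔWAPL/ΔSCC4 against control A, and 1.57 (SE 0.188, 1.17 to 1.97) in ΔWAPL/ΔSCC4 against clone 3.3. Neither clone was called, at 0.25 (-0.24 to 0.73) for clone 3.3 and -0.04 (-0.31 to 0.23) for clone 1.14. Control B was 1.06 (SE 0.174) above control A on the same scale, a difference that stayed between 0.99 and 1.18 but lost its call in each of the 6 fits that left out 1 control library. IGF2 rests on 28 to 143 reads a sample. On GRCh37 it spans chr11:2150342-2179621 on the minus strand, and 20.4% of its exon bases are shared on that strand with INS-IGF2, a read-through gene listed at 0 reads. Reads on the shared bases are ambiguous to the counter, so the level of IGF2 is uncertain.

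IGF2R, which clears IGF2, was lowest in clone 3.3. Control A stood at 196, 149 and 189 CPM, clone 3.3 at 128, 144 and 123 CPM, ΔSCC4 at 228, 233 and 219 CPM and ΔWAPL/ΔSCC4 at 187, 197 and 221.5 CPM. The samples of clone 3.3 lay below those of every other group, and those of ΔSCC4 lay above both control groups. Control B averaged 168 ± 2.25 CPM and clone 1.14 averaged 168 ± 8.72 CPM. The log2 fold change was -0.46 (SE 0.151, 95% interval -0.78 to -0.14) in clone 3.3, 0.33 (SE 0.136, 0.03 to 0.63) in ΔSCC4 and -0.01 (SE 0.056, -0.14 to 0.12) in clone 1.14. ΔWAPL/ΔSCC4 exceeded clone 3.3 by 0.62 (SE 0.114, 0.38 to 0.86), and the lowest and highest values without 1 replicate were 0.55 and 0.70.

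IGF1R, the signalling receptor of the axis, had group means between 66.9 ± 4.42 CPM in clone 3.3 and 94.8 ± 4.85 CPM in clone 1.14. All neighbours in that order overlapped. Control A stood at 68.6, 73.1 and 97.9 CPM and ΔSCC4 at 81.9, 84.5 and 109.5 CPM, so the sample with the highest value in each group carried replicate number 3. INSR shared that feature, with control A at 48.8, 56.2 and 71.4 CPM and ΔSCC4 at 38.9, 36.96 and 53.4 CPM. ΔWAPL/ΔSCC4 stood at 61.2, 61.3 and 59.2 CPM for INSR and clone 3.3 at 50.8, 51.2 and 44.8 CPM, with no overlap between them. The log2 fold change of INSR was -0.46 (SE 0.191, 95% interval -0.88 to -0.04) in ΔSCC4 and 0.31 (SE 0.116, 0.06 to 0.55) in ΔWAPL/ΔSCC4 against clone 3.3.

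**Figure D3:**
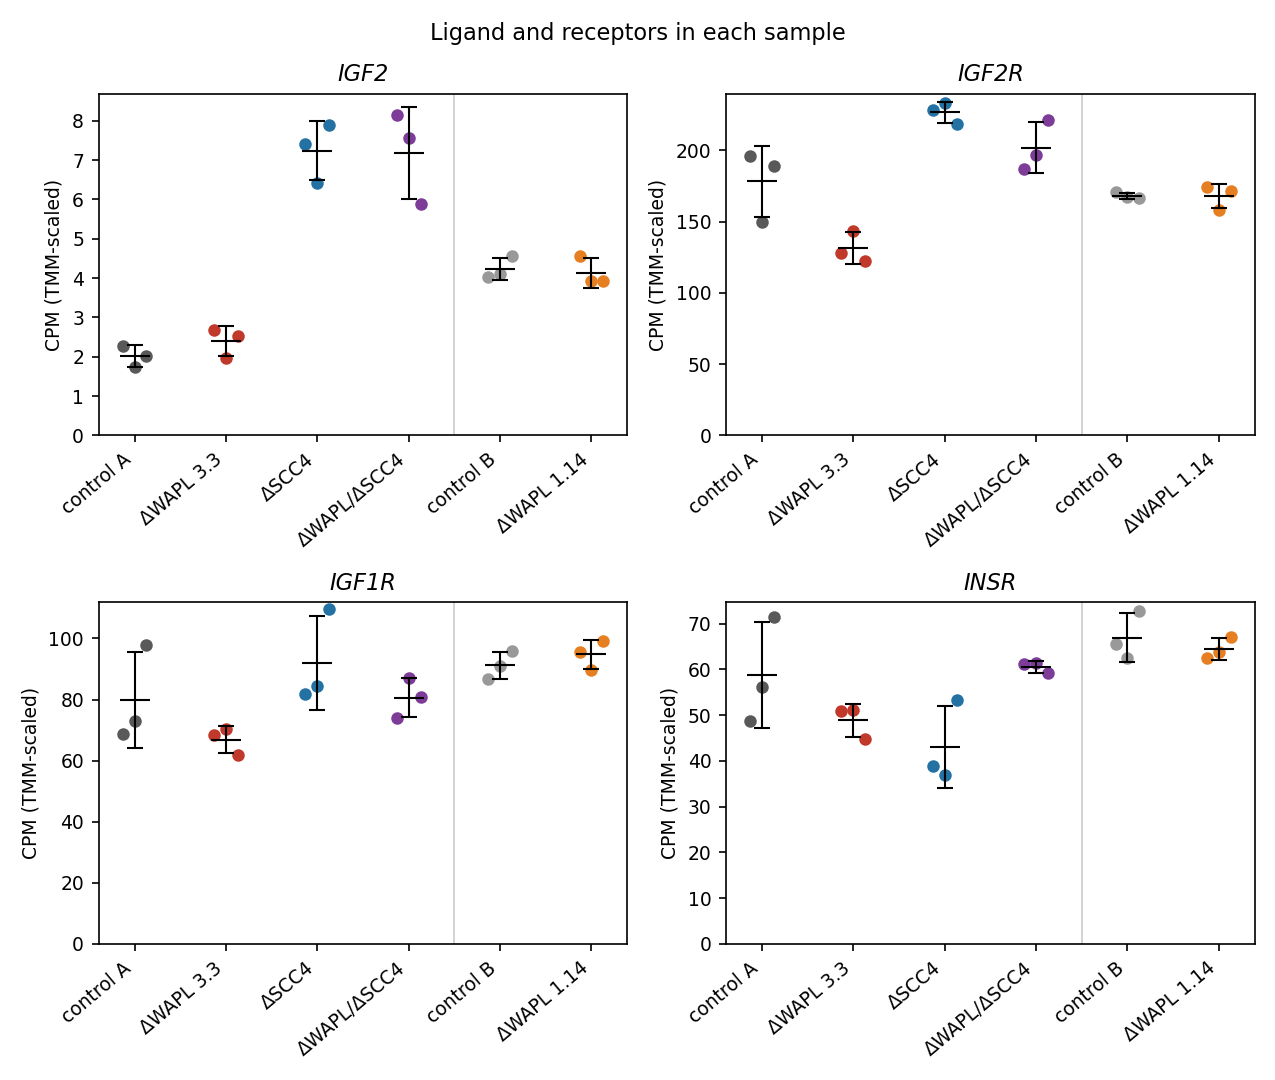
Level of the ligand IGF2 and of the receptors IGF2R, IGF1R and INSR in each sample, in TMM-scaled CPM on axes from 0, with a point for each of 3 samples of a group and bars for the mean ± SD. IGF2 is at 5.88 CPM or more in the 6 samples without SCC4 and at 4.56 CPM or less in the other 12 samples.

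The count of called members stood beside the share of all genes as follows. In clone 3.3 against control A, 1 of 8 tested members was called (IGFBP5), with 8.07% of all tested genes. In clone 1.14 against control B, 2 of 9 were called (IGFBP5 and IGFBP7), with 20.1% of all genes. In ΔSCC4 against control A, 2 of 8 were called (IGFBP5 and IGF2), with 9.49%. ΔWAPL/ΔSCC4 against control A also had 2 of 8 (IGFBP5 and IGF2), with 7.95%, and against clone 3.3 it had 2 of 8 (IGF2 and IGF2R), with 10.6%. Control B against control A had 2 of 8 (IGFBP5 and IGF2), with 0.640%. The median log2 fold change of the tested members was -0.19, -0.06, 0.12, 0.03, 0.28 and 0.07 in these 6 comparisons in turn, and that of all genes was within 0.02 of 0. IGFBP3 was tested nowhere, and the 8 or 9 tested members are not the whole list.

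Samples of ΔSCC4 and control A with the same replicate number deviated together (correlations 0.675, 0.115 and 0.615 over genes). No label pairs these samples. The pairing was read from these same counts, as the comparison in which every correlation exceeded 0.1, and was not tested. With the replicate number as a block, 6 members were called in that comparison, when 46.0% of all genes were called. The blocked log2 fold changes were -2.59 for IGFBP5, 1.83 for IGF2, -0.46 (SE 0.071) for INSR, 0.34 (SE 0.076) for IGF2R, 0.27 (SE 0.068) for IGFBP4 and 0.20 (SE 0.057) for IGF1R. IGFBP2, at 0.05 (SE 0.050), and IGFBP6, at -0.31 (SE 0.308), were not called.

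**Figure D4:**
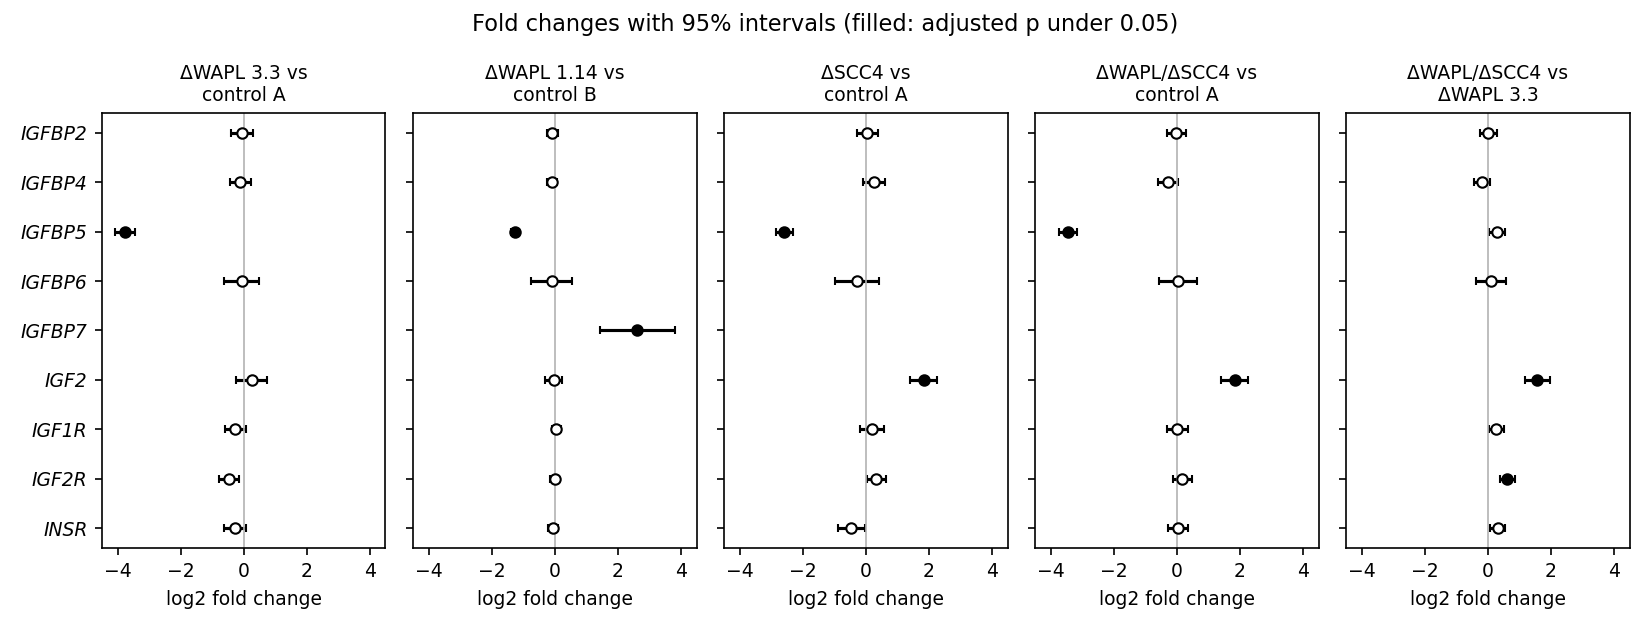
Log2 fold changes of 9 members (points) with 95% intervals (bars) in 5 comparisons. Filled points had an adjusted p under 0.05 over all genes tested by edgeR, and a gap marks a gene with too few reads to be tested. IGFBP5 is the point farthest left in the 4 comparisons with a control, from -3.77 to -1.26.

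Interaction terms compared these differences with each other. The change of IGFBP5 was lower by 2.49 on the log2 scale in clone 3.3 than in clone 1.14 (SE 0.114, 95% interval -2.74 to -2.25). No other member was called among 9 tested, with 2.65% of all genes called. Clone, set of controls and sequencing run cannot be told apart in this difference. The labels do not tie clone 1.14 to control B, and the pairing follows the run number that the data of both carry. The change with SCC4 loss was higher by 2.88 for IGFBP5 in cells without WAPL than in cells with WAPL (SE 0.148, 2.57 to 3.20), where the separate values were 0.29 in clone 3.3 and -2.59 in cells with WAPL. For INSR the same difference was 0.78 (SE 0.221, 0.30 to 1.25). These were the 2 members called of 8, with 11.3% of all genes. The INSR call was lost in 9 of 12 fits that left out 1 library, which were control A replicate 2 or 3, clone 3.3 replicate 2 or 3, ΔSCC4 replicate 1 or 2 and any of ΔWAPL/ΔSCC4, with values between 0.62 and 0.96 over the 12. IGF2 had a difference of -0.26 (-0.83 to 0.30).

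Beyond the members, 58 of 60 listed genes of the IGF pathway were matched in the count table. These lists were also chosen with earlier results of these counts known. The p-values printed for their genes therefore describe these counts and are no independent test. IGF1, INS, IGFBP1 and IGFALS had at most 2 reads in any sample, and the IGFBP protease PAPPA had none. IGFBPL1, a gene related to the binding proteins, averaged 26.0 to 37.5 CPM. In clone 3.3, 4 of 42 tested genes were called, 2 higher and 2 lower (9.52%). In clone 1.14 it was 9 of 43, 2 higher and 7 lower (20.9%), and in ΔSCC4 4 of 43, 3 higher and 1 lower (9.30%). ΔWAPL/ΔSCC4 against control A had 8 of 43, 5 higher and 3 lower (18.6%), and against clone 3.3 it had 5 of 43, 3 higher and 2 lower (11.6%). Control B against control A had 0 of 42. The shares over all genes tested were those given for the members, and no test of the list was run. At an unadjusted p under 0.05 edgeR counted 3 genes in control B against control A, and DESeq2 called 1. Over the list the median log2 fold change was -0.06, 0.07, 0.12, 0.02 and 0.07 in the 5 knockout comparisons in turn. With the replicate block 19 list genes were called in ΔSCC4, beside the 46.0% of all genes given above.

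Of 11 listed genes that share the IGFBP domain, 6 were tested, and 3, 2, 3, 3 and 2 of them were called in the 5 knockout comparisons in turn, with 8.07%, 20.1%, 9.49%, 7.95% and 10.6% of all genes. CCN1, a matrix protein that binds integrins, stood at 54.8, 51.4 and 46.2 CPM in control A and 26.3, 27.1 and 22.3 CPM in ΔSCC4. In ΔWAPL/ΔSCC4 it stood at 122, 118 and 131 CPM, above every other sample. Its log2 fold change was -1.02 (SE 0.142, adjusted p = 0.00101, edgeR) in ΔSCC4 and 1.28 (SE 0.122, adjusted p = 7.53e-05) in ΔWAPL/ΔSCC4 against control A. Against clone 3.3, ΔWAPL/ΔSCC4 was higher by 1.50 (SE 0.116, adjusted p = 1.59e-07, edgeR). Clone 1.14 was lower than control B by 1.03 (SE 0.067, adjusted p = 7.47e-05, edgeR). Clone 3.3 against control A was not called, at -0.23 (SE 0.146).

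HTRA3, a secreted serine protease with an IGFBP domain, went down in both ΔWAPL clones and up in ΔSCC4. It stood at 3.26, 4.81 and 3.46 CPM in control A, 1.35, 0.99 and 1.53 CPM in clone 3.3 and 12.7, 9.77 and 8.16 CPM in ΔSCC4. The log2 fold changes were -1.58 (SE 0.246, adjusted p = 0.000488, edgeR) and 1.40 (SE 0.222, adjusted p = 0.00238). In clone 1.14 the value was -1.18 (SE 0.151, adjusted p = 0.00177, edgeR). ΔWAPL/ΔSCC4 stood at 3.13, 1.97 and 2.94 CPM, above clone 3.3 by 1.05 (SE 0.247, adjusted p = 0.0107, edgeR) and overlapping at no sample with it. CCN3, a matrix protein of the same family as CCN1, was low, at 5 to 38 reads. It was higher than control A by 1.47 in clone 3.3 (SE 0.358) and by 1.91 in ΔWAPL/ΔSCC4 (SE 0.299), from 5, 10 and 8 reads in control A. In these comparisons CCN3 had enough reads to be tested only through the group where it is high. Its values are therefore a description and no p is given. The counts of called genes above include CCN3 in these comparisons.

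STC1, which inhibits the IGFBP protease PAPPA, was near 0.2 to 0.66 CPM in both controls and at 4.35, 3.50 and 3.56 CPM in clone 1.14. Clone 3.3 stood at 0.50, 0.35 and 0.93 CPM, within reach of control A. The log2 fold change in clone 1.14 was 3.46 (SE 0.242), from 3 to 7 reads in control B to 59 to 82 reads. In ΔWAPL/ΔSCC4 it was 1.65 (SE 0.258) against control A and 1.68 (SE 0.315) against clone 3.3. STC1 had too few reads to be tested in clone 3.3 against control A and in control B against control A, and it was tested in these 3 comparisons only through the group where it is high, so its values are a description and no p is given. The counts of called pathway genes above include STC1 in these 3 comparisons. GRB14, an adaptor that binds the activated insulin receptor and inhibits it, stood at 2.15, 2.34 and 3.16 CPM in control A and 6.03, 5.94 and 6.45 CPM in clone 3.3, a log2 fold change of 1.24 (SE 0.197, adjusted p = 0.000577, edgeR). In clone 1.14 its samples were at 7.26, 4.75 and 5.31 CPM and those of control B at 2.39, 2.35 and 5.12 CPM, which overlap, and it was not called. In the branch of PI3K, AKT and mTOR, 20 genes were tested, and 0, 3, 0, 1 and 1 of them were called in the 5 knockout comparisons in turn, beside the shares of all genes of 8.07%, 20.1%, 9.49%, 7.95% and 10.6%. For the comparisons without a call, clone 3.3 and ΔSCC4 against control A, edgeR counted 1 gene each at an unadjusted p under 0.05, and DESeq2 called 0 and 1.

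**Figure D5:**
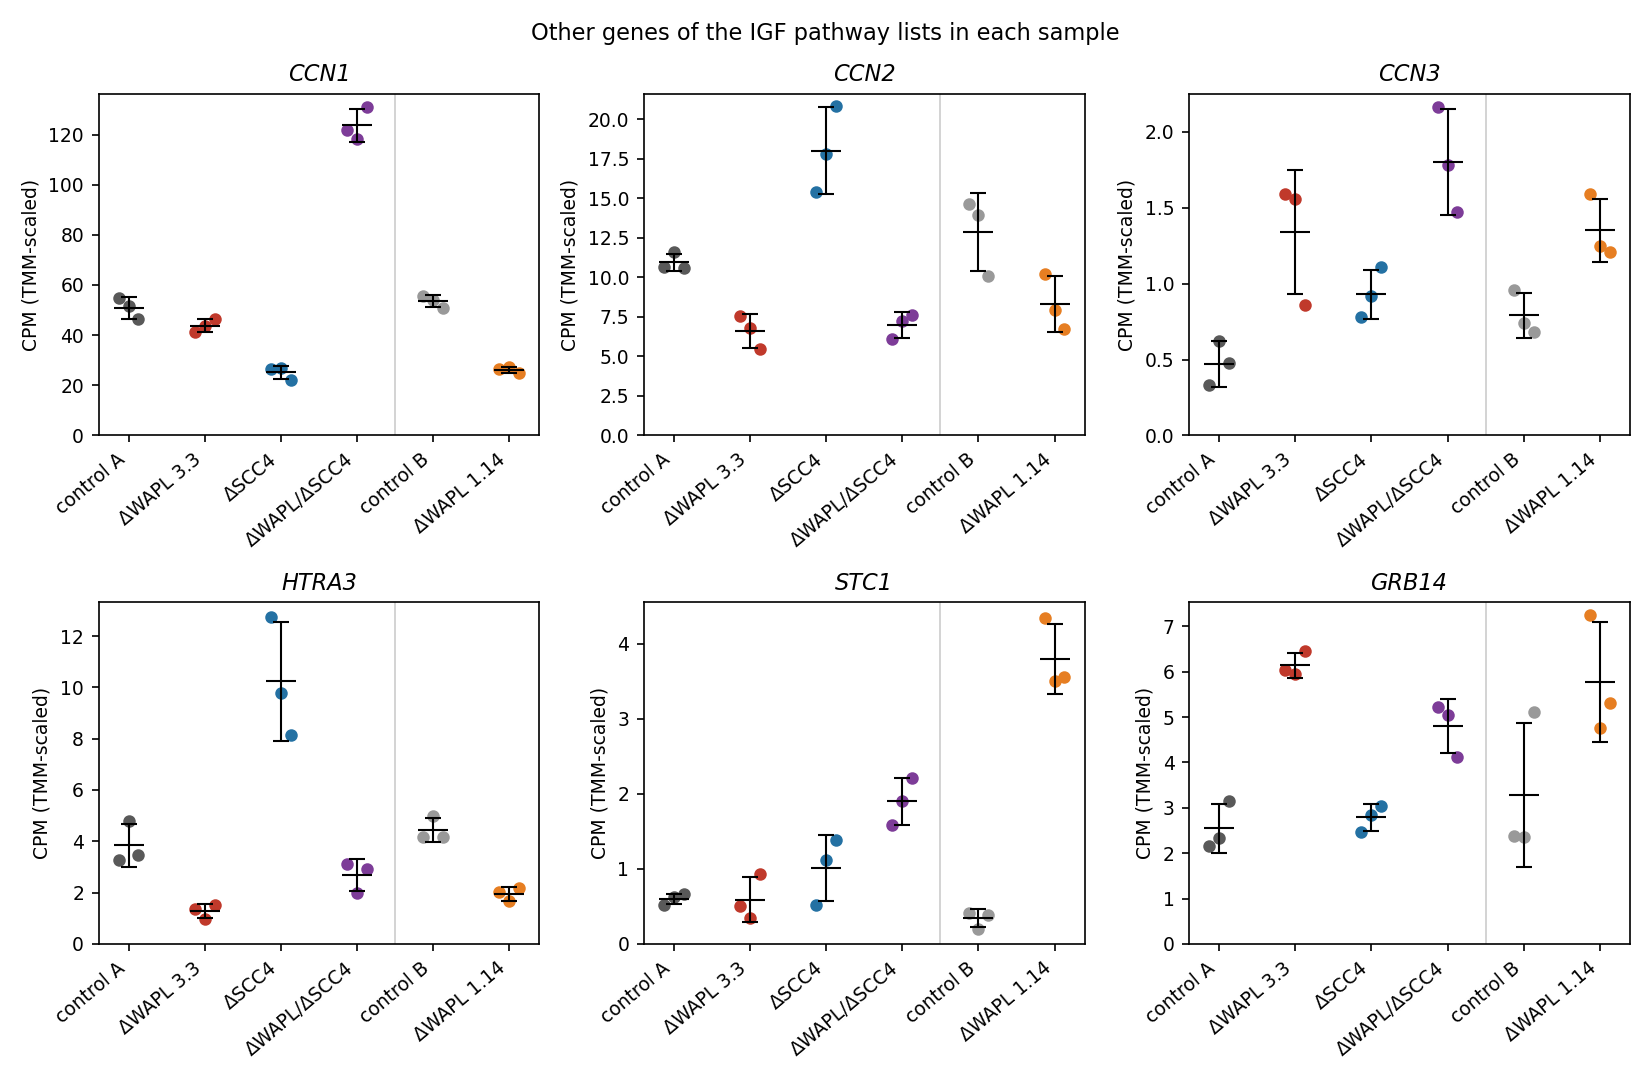
Level of 6 other genes of the IGF pathway lists in each sample, in TMM-scaled CPM on axes from 0, with a point for each of 3 samples of a group and bars for the mean ± SD. CCN1 is at 118 CPM or more in ΔWAPL/ΔSCC4 and at 55.5 CPM or less elsewhere, and STC1 is at 3.50 CPM or more in clone 1.14 and at 2.21 CPM or less elsewhere.

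The genes most like IGFBP5 and IGFBP2 were found by Pearson's correlation of log2 CPM (prior count 2) over the 18 samples, among 12976 genes. The samples share libraries, controls and depth, so the coefficients are descriptions. For IGFBP5 they were SULF1 (0.938), a heparan sulfate sulfatase, CD200 (0.929), a membrane glycoprotein of immune regulation, THSD4 (0.926), a matrix protein, TRPC4 (0.913), a cation channel, and ANGPTL2 (0.909), a secreted glycoprotein. SULF1 stood at 2.34 to 3.46 CPM in control A and at 0.55 CPM or below in the other groups of that set. TRPC4 had 8 to 18 reads in each control sample and 0 reads in all 12 knockout samples, and no fold is given. ANGPTL2 had 7 to 21 reads in each control sample and 1 to 8 in each knockout sample. SULF1 had 2, 0 and 0 reads in ΔWAPL/ΔSCC4. The coefficients of SULF1, TRPC4 and ANGPTL2 thus rest in part on few reads. CD200 averaged 14.4 ± 1.41 CPM in control A and 13.5 ± 0.42 in control B, so that the controls overlapped, unlike those of IGFBP5. In the knockout groups it averaged 4.85 to 7.89 CPM. By Spearman's correlation 2 of these 5 were again in the first 5.

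For IGFBP2 they were CCM2 (0.949), an adaptor of endothelial junctions, MAP7D1 (0.938), a microtubule-associated protein, BSG (0.938), a membrane glycoprotein, PIM3 (0.934), a kinase, and AP1B1 (0.931), a clathrin adaptor subunit. Spearman's correlation kept 4 of these 5. AP1B1 stood at 228, 189 and 169 CPM in control A and 173, 191 and 232 CPM in clone 3.3. Within these groups its highest samples were control A replicate 1 and clone 3.3 replicate 3, as for IGFBP2. CCM2, MAP7D1, BSG and PIM3 were highest in the same samples of these groups. None of the 5 was called in any of the comparisons fitted here.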

How the data were processed

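RNA of HAP1 cells was sequenced in 18 samples with strand-specific libraries of polyadenylated RNA. The authors deposited gene counts made by HTSeq as whole numbers that had not been normalized, after alignment with TopHat2 to hg19; the version is 2.0.9 in the submitters' processing notes and another one in the study's methods, and the annotation release is not given in the sources used here. HTSeq leaves out reads on several genes (1.468% to 1.729% ambiguous). Symbols and positions came from GENCODE on GRCh37, in which 96.6% of gene identifiers were found, and promoter sequence came from that genome.

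Each comparison was fitted with edgeR 4.0.16 (R 4.3.3, quasi-likelihood test, TMM, filterByExpr, Benjamini-Hochberg threshold 0.05) on the whole table, and standard errors were derived from the F statistic. DESeq2 1.42.0, other filters and scalings, 1 fit over 18 samples, the replicate block, all 6 controls and leaving out each replicate were tried. The fits were tested on simulated data with the same spread set for every gene. Changes were set only in genes above a low level in control A. The members IGF2, IGFBP3, IGFBP6 and IGFBP7 lay below it, as did STC1 and CCN3. The shares found do not cover them. For clone 3.3 against control A, 97.0% of log2 changes of 1 were found, and 2.48% of calls were false. For the interaction of WAPL and SCC4, 62.5% were found, and 7.87% of calls were false, above the threshold of 0.05. Counts of replicate pairs differed by more than sampling noise (chi-square per degree of freedom 1.606 to 51.995), so each sample was counted once. Only in ΔSCC4 against control A did each pair of samples with the same replicate number correlate above 0.1. No label states a pairing. Members and lists were chosen with earlier results of these data known. The named genes were the 10 members, the neighbours within 500 kb, the 5 genes most like IGFBP5 and IGFBP2, WAPL and MAU2, and pathway genes called with a log2 fold change of at least 1 in size, at most 6 per comparison. CCN2, HTRA1, INPPL1, IGFBPL1 and the marker genes are named outside that rule.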

Additional observations from a re-analysis of the deposited data

Results flagged for a closer look

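Some changes differed between groups by the test of the difference itself (an interaction term in edgeR). Between the clones, the log2 change against control of IGFBP5 differed by -2.491 (clone 3.3 minus clone 1.14), that of STC1 by -3.489, that of the secreted protease HTRA1 by -0.606 and that of CCN1 by 0.816. IGFBP5 was a member picked with these levels known, so its value is a description. That of STC1 is one too, since STC1 had enough reads to be tested only through clone 1.14, where it is high. The adjusted p from edgeR was 0.043 for HTRA1 and 0.00362 for CCN1. The p-values in this section belong to genes of lists chosen with earlier results known, and they are no independent test. The clones also differ in their set of controls, and the 2 effects cannot be told apart. Without WAPL, the log2 change that went with SCC4 loss differed from that with WAPL by 2.884 for IGFBP5, 0.776 for INSR, -0.758 for HTRA1, 2.532 for CCN1 and -0.869 for INPPL1, a phosphatase of inositol lipids. The adjusted p from edgeR was 0.0113 for HTRA1, 1.02e-07 for CCN1 and 0.00847 for INPPL1. HTRA1 averaged 40.9 CPM in control A, 29.9 in clone 3.3, 67.9 in ΔSCC4 and 28.9 in ΔWAPL/ΔSCC4. INPPL1 averaged 192 CPM in control A, 178 in clone 3.3, 217 in ΔSCC4 and 108 in ΔWAPL/ΔSCC4.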

How the results depend on the processing

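With each replicate left out in turn, IGFBP5 lay from -3.83 to -3.72 for clone 3.3 and from -1.28 to -1.23 for clone 1.14. ΔSCC4 gave -2.63 to -2.55 and ΔWAPL/ΔSCC4 gave -3.55 to -3.39, and IGFBP5 kept its call in each of these fits. IGFBP5 in control B against control A lost its call without control A replicate 2, at -1.145. IGFBP2, which is called nowhere, changed sign without single replicates, with ranges of -0.192 to 0.080 for clone 3.3 and -0.072 to 0.173 for ΔSCC4. For ΔWAPL/ΔSCC4 the ranges were -0.117 to 0.115 against control A and -0.074 to 0.140 against clone 3.3. The changes of sign in clone 3.3 were 0.080 and 0.046, in ΔSCC4 -0.041 and -0.072, in ΔWAPL/ΔSCC4 against control A 0.115 and 0.032, and against clone 3.3 -0.074, -0.022, -0.031 and -0.017.

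The number of members called grew when all 18 samples shared 1 fit. It then was 3 instead of 1 for clone 3.3, 4 instead of 2 for ΔSCC4, and 4 instead of 2 for ΔWAPL/ΔSCC4 against clone 3.3, while 13.5%, 19.7% and 11.5% of all genes were called in place of 8.07%, 9.49% and 10.6%. That fit also called IGFBP5 in the last comparison at 0.288. The number was 2 in clone 3.3 with all 6 controls (10.9% of all genes), 6 in ΔSCC4 with the replicate block, and 1 in clone 1.14 at a minimum of 10 counts in every sample (17.7% of all genes), which leaves IGFBP7 untested. Without single replicates it was 1 to 2 in clone 1.14, 0 to 1 in control B against control A and 1 to 3 in the interaction of WAPL and SCC4. Pathway genes called moved in clone 3.3 from 4 to 7 in 1 fit over 18 samples and to 7 with all 6 controls, and were 2 to 5 without single replicates, 2 of them without clone 3.3 replicate 2. In clone 1.14 they moved from 9 to 14 with the replicate block, and were 7 to 19 without single replicates, 19 of them without control B replicate 3. In ΔSCC4 the block moved them from 4 to 19, and without single replicates they were 2 to 5, with 2 when control A replicate 2 or ΔSCC4 replicate 2 was left out. In ΔWAPL/ΔSCC4 against control A they were 5 at a minimum of 10 counts, and 5 to 10 without single replicates, with 5 when control A replicate 2 or ΔWAPL/ΔSCC4 replicate 1 was left out. The cause of these moves was not tested. Outside ΔSCC4 the same-number correlations ran from -0.545 to 0.479. For clone 1.14 against control B they were 0.049, 0.319 and 0.196. There the block moved the pathway count as given, with 24.0% of all genes called in place of 20.1%. Whether the numbers mark pairs was not tested. Scaling by the raw library moved group levels by at most 2.04%. Depth limits IGFBP3, IGFBP6 and IGFBP7 most.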
